A study of Homo sapiens with 9 samples.

Results

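The zinc finger genes of chromosome 19 are taken here as the protein-coding genes of that chromosome whose symbol is ZNF followed by a number. There were 249 of them among the 58735 genes of the deposited count table, which lists 19951 protein-coding genes, 1472 of them on chromosome 19 and 514 with a ZNF symbol on any chromosome. RNA was measured by sequencing in SKOV3, an established human ovarian cancer cell line. The WT libraries came from cells expressing wild-type CDK9, the kinase of the elongation factor P-TEFb. The Ai libraries came from the same kind of cells after 24 h with an inhibitor of ALK, a receptor tyrosine kinase, and the Y19F libraries from cells expressing CDK9 with tyrosine 19 replaced by phenylalanine (Tyr19Phe), which ALK cannot phosphorylate at that position. Each group had 3 libraries. The comparison of Ai with WT asks what ALK inhibition changed, and that of Y19F with WT what the loss of the phosphorylated residue changed.

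The cells are stable lines, and the labels give no number of clones behind each. In other experiments of the study, CDK9 was depleted before the introduced form was expressed, and the sources used here do not say whether that was so for the sequenced cells, nor which ALK inhibitor was used at which dose. Reads of endogenous and introduced CDK9 were not separated. Nothing in the labels says that the 3 libraries of a group came from separate cultures, so the p-values measure the spread between these libraries, which may be technical.

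Most proteins of this gene family pair an array of C2H2 zinc fingers, which bind DNA, with an N-terminal KRAB domain. The KRAB domain recruits the scaffold TRIM28 (KAP1), which brings the histone methyltransferase SETDB1, HP1 proteins and deacetylases to the bound site and silences it. Many members bind transposable elements. The genes arose by repeated local duplication, so neighbours resemble each other and stand in long tandem clusters on chromosome 19.

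In these libraries 181 of the 249 genes carried the letters of a KRAB A box in their longest coding transcript, a search that misses shorter or altered boxes: ZNF224 and ZNF568, known KRAB genes, were not found by it. The 247 genes with a coding transcript had a median of 12 C2H2 fingers and a maximum of 36. With a gap of at least 1 Mb as the border and 3 members as the minimum, they fell into 10 sub-clusters and 8 scattered genes, numbered here from the short arm. Sub-cluster 1 (ZNF554 to ZNF77, 2.82 to 2.94 Mb) held 5 genes, sub-cluster 2 (ZNF557 to ZNF846, 7.07 to 9.79 Mb) 16, and sub-cluster 3 (ZNF653 to ZNF791, 11.48 to 12.64 Mb) 26. Sub-cluster 4 (ZNF101 to ZNF254, 19.67 to 24.13 Mb), beside the centromere, held 37, of which 35 had the KRAB letters. On the long arm followed sub-cluster 5 (ZNF302 to ZNF792) with 5 genes, sub-cluster 6 (ZNF565 to ZNF573) with 26, sub-cluster 7 (ZNF546 to ZNF780A) with 3, sub-cluster 8 (ZNF575 to ZNF296) with 24, sub-cluster 9 (ZNF175 to ZNF331) with 40 and sub-cluster 10 (ZNF628 to ZNF446, 55.48 to 58.48 Mb) with 59. In sub-cluster 8 the search found the letters in 2 of 24 genes, and ZNF224 is among those it missed there. All positions are on hg38, as in the deposited table.

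The libraries held 18169050 to 29320184 counted reads, with the 3 Y19F libraries the deepest (26485891 or more). The floor used for detection was 3 reads, or 0.102 to 0.165 CPM by library (counts scaled to a common library size by the TMM method), and covers counting error only. Replicate 2 of Ai and replicate 3 of Y19F listed fewer genes with a read (19944 and 20635) than the other 7 libraries (21241 to 22744), and counts of calls are given with and without them. The markers of the line ERBB2, KRT7, KRT8, KRT18, KRT19, PAX8 and EPCAM had group means of up to 2622 CPM (ERBB2 in Ai), the lowest being EPCAM with 21.2 in WT, 20.9 in Ai and 12 in Y19F. Several of them also differed from WT: ERBB2 (0.54), KRT19 (0.21) and KRT7 (-0.35) were called in Ai, and KRT19 (-1.24), EPCAM (-0.82), KRT18 (0.39), KRT8 (0.38) and ERBB2 (-0.29) in Y19F, as log2 fold changes. The 7 markers of blood, endothelium, liver and muscle had at most 0.377 CPM, the mean of VWF in Y19F. CDK9 itself had 48.5 ± 1.03 CPM in WT, 45.5 ± 1.76 in Ai and 54.9 ± 3.94 in Y19F (SD, n = 3 each) and was not called in Ai (adjusted p = 0.665, edgeR's quasi-likelihood test) or Y19F (adjusted p = 0.106), while Y19F was above Ai by 0.27 ± 0.08 on the log2 scale (adjusted p = 0.00961). ALK had 0 to 5 counts per library and was too low to test.

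The zinc finger genes were transcribed broadly at low levels. Of the 249 genes, 238 passed the filter on low counts and were tested. The other 11 (ZNF177, ZNF208, ZNF536, ZNF560, ZNF625-ZNF20, ZNF709, ZNF723, ZNF728, ZNF816-ZNF321P, ZNF835 and ZNF98) had at most 18 counts in any library, and ZNF208, ZNF723 and ZNF728 had 0 in all 9. Together the members took 0.486% to 0.511% of the counts of each library. Per length of gene model, the tested members had a median of 2.96 RPKM (CPM per kilobase of gene model) against 5.65 for all tested protein-coding genes. The highest levels per length belonged to ZNF146 (36.9 RPKM), a protein made of fingers with no KRAB domain, followed by ZNF358 (34.5), ZNF486 (22.1), ZNF580 (17.9) and ZNF787 (15.2). ZNF146 lay between 141 and 160 CPM in the 9 libraries, its groups overlapped, and its log2 fold changes were -0.05 with the inhibitor and -0.02 with Tyr19Phe CDK9. Reads of near-identical genes can be shared out wrongly. By sequence, 103 members held no run of 75 bases found in another gene, 48 shared over 10% of such runs and 12 over 50%. A further limit is overlap, measured over the whole span of a gene with its introns. The other genes on their strand together cover over 50% of 55 members, and antisense genes together cover over 50% of 25. The strand setting of the counting is not given in the sources used here.

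With the ALK inhibitor, 10 of the 238 tested members were lower than in WT and 1 was higher at an adjusted p under 0.05. That is 4.2% lower and 0.42% higher, against 2.73% and 1.82% of all 16350 tested genes. The median log2 fold change of the members was -0.01. All 3 Ai libraries lay below all 3 WT libraries for 33 members (13.9%), against 10.3% of all tested genes. The 756 other tested protein-coding genes of chromosome 19 gave 17 lower and 13 higher, and the 231 tested ZNF genes of other chromosomes gave 1 lower and 0 higher by edgeR and by DESeq2 (9 higher at an unadjusted p under 0.05). The lower members were ZNF431, ZNF100, ZNF430, ZNF714, ZNF429, ZNF708 and ZNF738 of sub-cluster 4, ZNF699 of sub-cluster 2, ZNF442 of sub-cluster 3 and ZNF607 of sub-cluster 6. ZNF599 of sub-cluster 5 was the higher one. Without replicate 2 of Ai and replicate 3 of Y19F, 8 members were lower and 1 higher.

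With Tyr19Phe CDK9, 17 members were lower than in WT and 2 were higher. These shares, 7.14% and 0.84%, compare with 10.4% lower and 7.61% higher among all tested genes, and the median of the members was -0.01. The Y19F libraries all lay below the WT libraries for 33 members (13.9%), against 17.2% of all genes. Other protein-coding genes of chromosome 19 went mostly the other way, with 49 lower and 88 higher of 756, and ZNF genes elsewhere split evenly, with 11 lower and 11 higher of 231. The lower members were ZNF431, ZNF100, ZNF430, ZNF429 and ZNF714 (sub-cluster 4), ZNF699 and ZNF562 (2), ZNF566, ZNF569 and ZNF607 (6), ZNF888, ZNF480 and ZNF468 (9), ZNF583, ZNF582 and ZNF772 (10) and the scattered ZNF473. ZNF599 and ZNF227 were higher. Scaling by library size alone gave 14 lower and 4 higher, and 11 were lower without replicate 1 of Y19F. Without replicate 2 of Ai and replicate 3 of Y19F, the libraries with fewer detected genes, 16 were lower and 2 higher. The count of 2 higher fell to 1 without replicate 1 or 2 of WT and rose to 4 without replicate 2 of Ai or replicate 1 of Y19F.

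**Figure D1:**
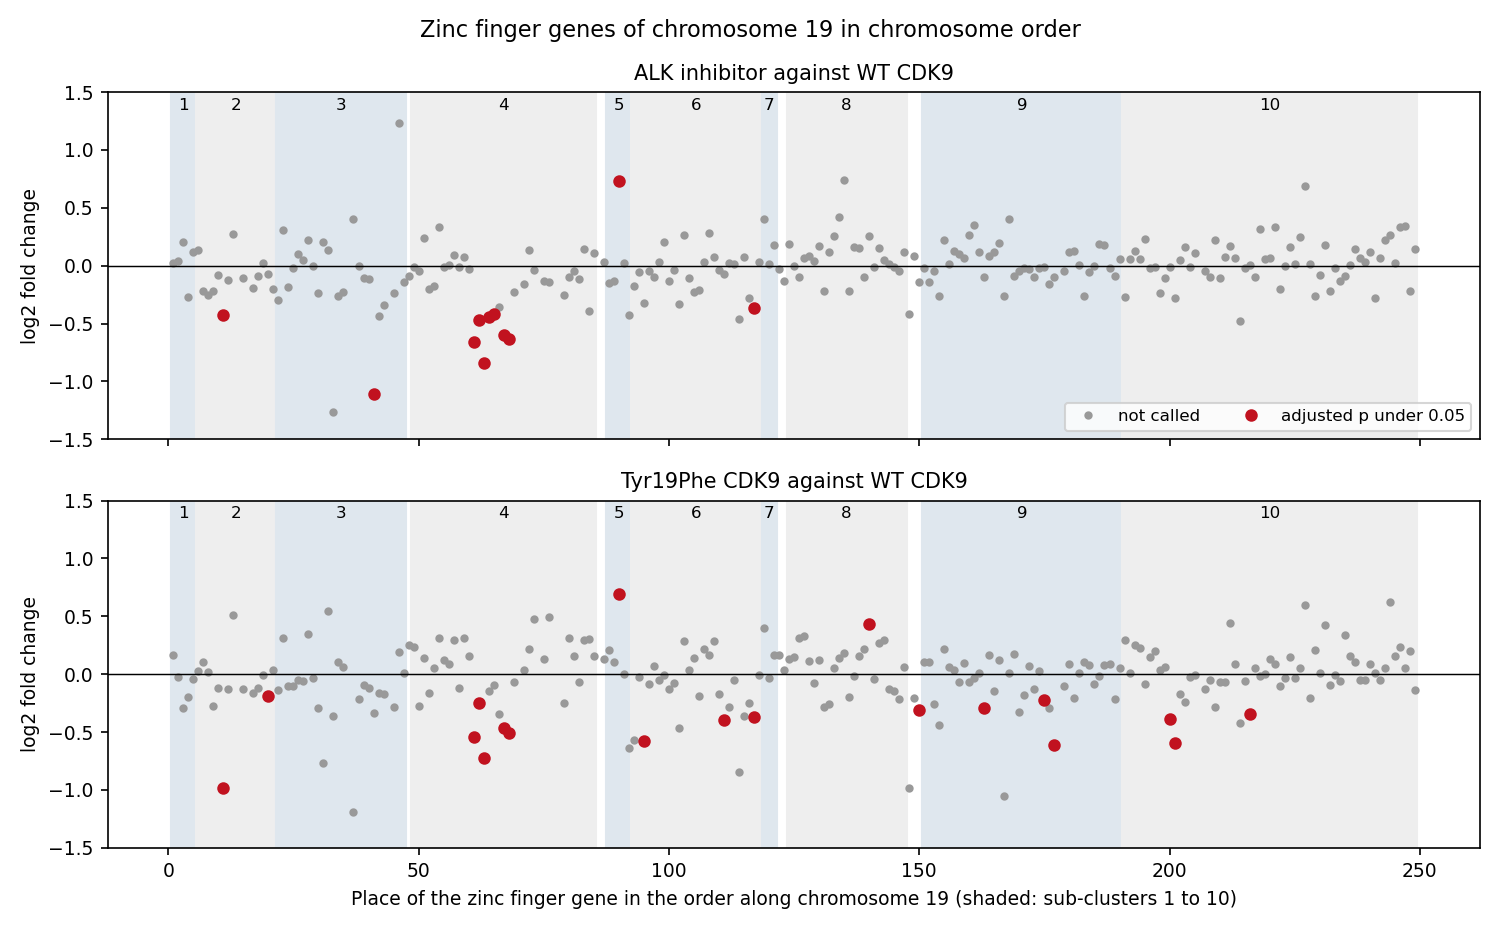
Log2 fold change (y axis) of the 238 tested zinc finger genes by their place in chromosome order (x axis), with the ALK inhibitor above and Tyr19Phe CDK9 below; shading marks the 10 sub-clusters and red points have an adjusted p under 0.05. In the upper panel 7 of the 10 lower genes stand close together in sub-cluster 4, with ZNF493 between them not called, and in the lower panel the 17 lower genes are spread over sub-clusters 2, 4, 6, 9 and 10 and a scattered gene.

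Both comparisons used the same 3 WT libraries, so their calls are given side by side. Lower in both were 7 members, ZNF431, ZNF100, ZNF430, ZNF714, ZNF429, ZNF699 and ZNF607. That is 70.0% of the lower members of the inhibitor comparison and 41.2% of those of the Tyr19Phe comparison. A deviation of the shared WT libraries moves both comparisons alike. The matching shares over all tested genes are not given here, so this overlap cannot be read as a trait of the family. ZNF599 was higher in both, and each member called in both had the same direction.

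The inhibitor calls were concentrated in a stretch of sub-cluster 4. From ZNF430 to ZNF100 (chr19:21020620-21767628, 747 kb) stand 8 members, 6 on the plus and 2 on the minus strand. Its borders are the outermost of the lower genes and were chosen after the values were seen, so the counts describe the stretch and are no test of it. By this choice no member of sub-cluster 4 outside it could be called lower with the inhibitor. DNA was not measured here, and bulk RNA cannot tell less RNA per cell from fewer cells with the transcript. In order along the chromosome the genes are ZNF430, ZNF714, ZNF431, ZNF708, ZNF738, ZNF493, ZNF429 and ZNF100. With the inhibitor 7 of the 8 were lower (median log2 fold change -0.53, range -0.84 to -0.36). ZNF493, the exception, had -0.36 ± 0.13 (SE) with an adjusted p of 0.132. With Tyr19Phe CDK9, 5 of the 8 were lower (median -0.40, range -0.72 to -0.09), and ZNF493 (-0.34), ZNF708 (-0.15) and ZNF738 (-0.09) were not called. Of the 25 other tested members of sub-cluster 4, 0 were called against WT in either comparison by edgeR or DESeq2, with 2 lower at an unadjusted p under 0.05 with the inhibitor and 3 higher with Tyr19Phe CDK9, and their medians were -0.04 and 0.15. Without replicate 1 of Ai, 4 of the 8 were called lower with the inhibitor, and without both replicate 2 of Ai and replicate 3 of Y19F, 6.

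ZNF431 showed the smallest adjusted p of the family with the inhibitor. Its KRAB protein has been reported as a repressor of the Hedgehog receptor gene PTCH1. The WT libraries had 100.5, 104 and 111 CPM, the Ai libraries 56.1, 62.3 and 58.4, and the Y19F libraries 62.3, 65.0 and 64.6. No Ai or Y19F library reached the lowest WT library, and the Ai and Y19F ranges met at their edges. The log2 fold change was -0.84 ± 0.07 (SE) with the inhibitor (adjusted p = 6.14e-11) and -0.72 ± 0.06 with Tyr19Phe CDK9 (adjusted p = 4.67e-10). Between Y19F and Ai it was 0.12 ± 0.07 (adjusted p = 0.229).

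The KRAB zinc finger genes at the borders of the stretch had the same order of groups. ZNF430 had 38.3, 38.5 and 41.2 CPM in WT, 26.7, 25.2 and 23.0 in Ai and 27.2, 25.6 and 28.5 in Y19F. ZNF100 had 62.5, 60.0 and 63.6 CPM in WT, 43.0, 36.2 and 40.4 in Ai and 47.0, 42.5 and 41.6 in Y19F. For both genes every library of Ai and of Y19F lay below every WT library, while Ai and Y19F overlapped. ZNF430 fell by 0.66 ± 0.10 on the log2 scale with the inhibitor (adjusted p = 1.4e-05) and by 0.54 ± 0.09 with Tyr19Phe CDK9 (adjusted p = 6.06e-05). ZNF100 fell by 0.64 ± 0.08 (adjusted p = 1.51e-06) and by 0.50 ± 0.08 (adjusted p = 1.45e-05).

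Between these lie members with weaker changes. ZNF714 had 53.4, 48.1 and 54.4 CPM in WT, 40.2, 37.8 and 34.8 in Ai and 43.6, 42.2 and 45.2 in Y19F, so its groups did not overlap. It fell by 0.47 ± 0.08 with the inhibitor (adjusted p = 0.000301) and by 0.25 ± 0.08 with Tyr19Phe CDK9 (adjusted p = 0.0269). ZNF429 had 27.2, 31.5 and 28.2 CPM in WT, 14.9, 23.6 and 19.1 in Ai and 21.4, 22.9 and 18.8 in Y19F. Its Ai libraries were widely spread, and the log2 fold changes were -0.60 ± 0.13 (adjusted p = 0.00294) and -0.46 ± 0.13 (adjusted p = 0.00797). ZNF708 and ZNF738 were called with the inhibitor at the margin, with -0.45 ± 0.12 (adjusted p = 0.025) and -0.42 ± 0.12 (adjusted p = 0.0418). In Y19F both overlapped WT, with 18.8 to 20.1 CPM against 18.8 to 23.9 for ZNF708 and 20.0 to 26.6 against 22.5 to 25.3 for ZNF738. ZNF738 shares 25.5% of its 75-base runs with other genes and ZNF493 is covered over 73.6% by the other genes on its strand, so their counts are uncertain.

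**Figure D2:**
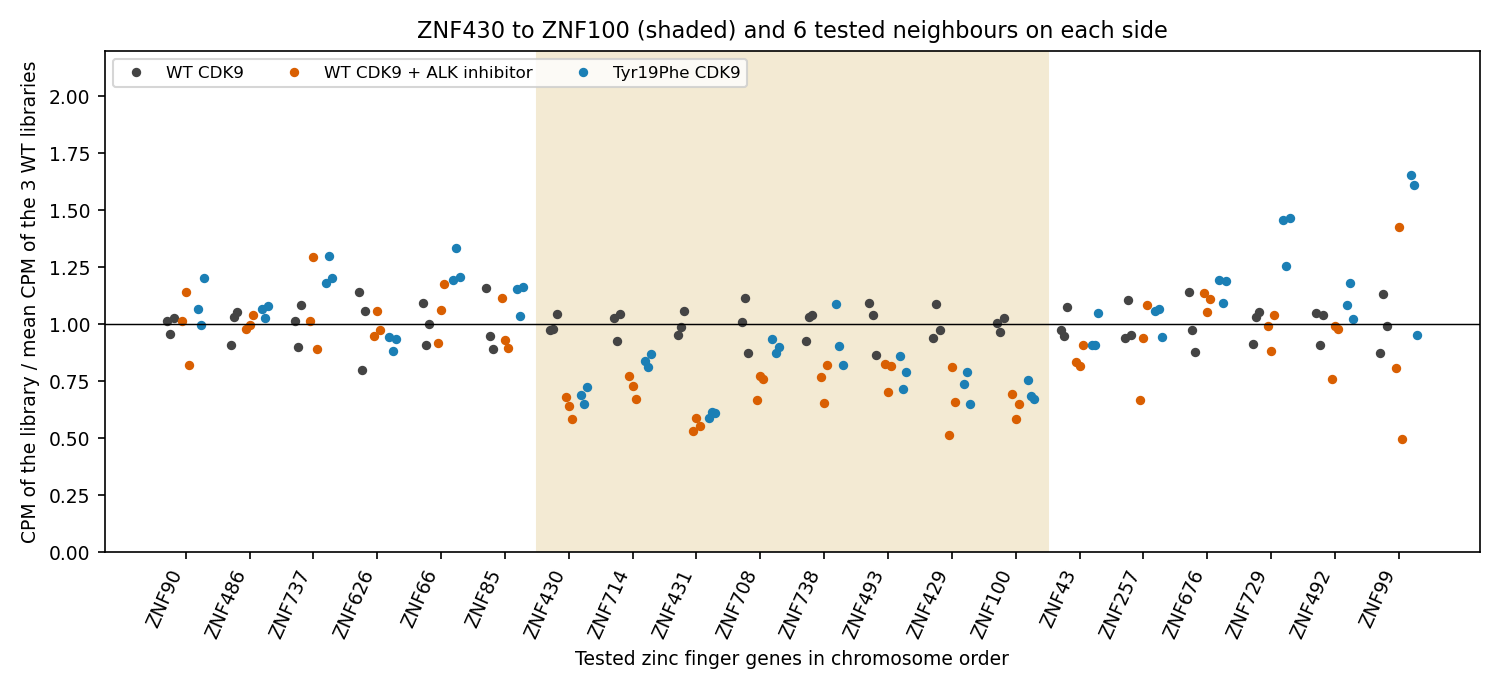
CPM of each library divided by the mean of the 3 WT libraries (y axis) for the 8 genes from ZNF430 to ZNF100 (shaded) and the 6 tested members on each side, in chromosome order (x axis). Within the shading all Ai points lie below 1, and among the 12 neighbours the Ai points overlap the WT points for all but ZNF43.

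The nearest tested members outside the stretch were not called, which for lower calls with the inhibitor follows from how its borders were set. ZNF85 ends 69.9 kb before ZNF430 and had 34.2 to 44.6 CPM in WT, 34.5 to 42.8 in Ai and 39.7 to 44.6 in Y19F, all overlapping, with log2 fold changes of -0.03 ± 0.10 and 0.16 ± 0.10. ZNF43 begins 37.3 kb after ZNF100 and had 52.9 to 59.8 CPM in WT, 45.4 to 50.6 in Ai and 50.5 to 58.5 in Y19F. Its Ai libraries lay below WT without overlap, but the log2 fold change of -0.23 ± 0.08 was not called (adjusted p = 0.123). ZNF257, the next tested gene, had -0.16 ± 0.15 and 0.03 ± 0.15.

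Library by library, the median over the 8 genes of the stretch was close within each group, while single genes varied widely. The median log2 ratio of these 8 genes to the WT mean was -0.54, -0.55 and -0.59 in the 3 Ai libraries and -0.33, -0.40 and -0.40 in the 3 Y19F libraries, while the WT libraries had -0.01 to 0.05. Single genes ran from -0.95 to -0.27 in replicate 1 of Ai and from -0.76 to 0.13 in replicate 1 of Y19F. For the 25 other tested members of sub-cluster 4 the Ai libraries had -0.05, -0.01 and -0.02 and the Y19F libraries 0.23, 0.09 and 0.16. The stretch was set by its inhibitor calls, and Y19F was compared with the same WT libraries. The contrast with these 25 members therefore follows in part from that choice and is no test of the stretch. Over all 238 tested members these medians stayed between -0.03 and 0.03 in every library.

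Other transcripts of the stretch were also measured. Among the 9 tested genes there that are not members, 3 were lower in Ai than in WT and 1 was lower in Y19F. These shares are 33.3% and 11.1%, against 2.73% and 10.4% of all tested genes, so that with Tyr19Phe CDK9 was near the background. LINC00664, a long non-coding RNA, had 31.1 to 36.0 CPM in WT, 14.3 to 19.5 in Ai and 22.4 to 27.2 in Y19F, with log2 fold changes of -0.97 ± 0.12 (adjusted p = 4.02e-07) and -0.41 ± 0.11 (adjusted p = 0.00756). VN1R81P, a pseudogene of a vomeronasal receptor, had -1.83 ± 0.39 with the inhibitor (adjusted p = 0.00284) on 14 to 24 counts in each Ai library. AC010615.2 had -0.52 ± 0.09 (adjusted p = 0.000324) with the inhibitor. Both of these overlapped WT in Y19F. LINC00664 overlaps ZNF429 in position, and 11.0% of ZNF429 is covered by other genes on its strand. VN1R81P lies inside ZNF714 on the same strand and shares runs of bases with it. The counts of VN1R81P may therefore include reads of ZNF714. Such sharing of reads was not tested.

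By fingers and KRAB letters the stretch resembled its surroundings. Of its 8 genes 7 carried the KRAB letters, with 5 to 18 fingers (median 12), against 24 of the 25 other tested genes of the sub-cluster with 8 to 34 fingers (median 13). Levels per length were 1.53 to 7.34 RPKM in the stretch (median 4.98) and 0.189 to 22.1 outside it (median 3.18).

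The promoters of ZNF430, ZNF431 and ZNF100 are shown because these genes had the smallest adjusted p of the stretch, and that of ZNF85 because it is the nearest tested neighbour and was not called. Each line holds 250 bases before and 50 after the annotated start, from RefSeq on GRCh38.p14, 5′ to 3′ on the gene's own strand. Capitals mark matches on either strand to GGGCGG (a GC box), CCAAT (the NF-Y box) or CCGGAAG (an ETS-type motif), where CCGGAAG, read on the other strand, can run on from a GC box.
ZNF85, chr19:20923001-20923300, plus strand: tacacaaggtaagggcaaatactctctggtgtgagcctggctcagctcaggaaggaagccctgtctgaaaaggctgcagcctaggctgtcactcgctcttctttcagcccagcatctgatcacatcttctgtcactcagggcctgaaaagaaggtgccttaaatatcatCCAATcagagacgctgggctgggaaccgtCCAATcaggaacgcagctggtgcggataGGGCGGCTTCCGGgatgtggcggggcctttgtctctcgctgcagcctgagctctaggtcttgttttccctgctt
ZNF430, chr19:21020407-21020706, plus strand: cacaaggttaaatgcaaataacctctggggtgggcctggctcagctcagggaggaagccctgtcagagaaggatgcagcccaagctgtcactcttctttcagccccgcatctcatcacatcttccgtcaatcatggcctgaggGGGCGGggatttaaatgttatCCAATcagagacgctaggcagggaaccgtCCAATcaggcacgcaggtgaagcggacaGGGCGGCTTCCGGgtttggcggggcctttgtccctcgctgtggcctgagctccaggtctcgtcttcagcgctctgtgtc
ZNF431, chr19:21141790-21142089, plus strand: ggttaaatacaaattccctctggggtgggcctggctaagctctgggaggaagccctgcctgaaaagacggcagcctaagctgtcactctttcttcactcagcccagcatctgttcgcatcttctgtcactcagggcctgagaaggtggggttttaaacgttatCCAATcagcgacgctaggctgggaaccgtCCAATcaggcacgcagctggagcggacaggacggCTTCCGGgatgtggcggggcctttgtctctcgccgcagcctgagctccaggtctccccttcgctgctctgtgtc
ZNF100, chr19:21767530-21767829, minus strand: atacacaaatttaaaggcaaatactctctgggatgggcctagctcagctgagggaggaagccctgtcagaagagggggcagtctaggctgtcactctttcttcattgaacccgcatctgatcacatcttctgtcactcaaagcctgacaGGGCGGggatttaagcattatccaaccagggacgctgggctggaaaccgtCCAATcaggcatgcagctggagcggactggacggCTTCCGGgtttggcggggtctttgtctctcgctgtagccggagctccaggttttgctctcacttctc

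The arrangement of CCGGAAG and CCAAT near the start was shared by all 4 genes. In each, the reverse complement of CCGGAAG began 17 to 24 bases before the start, at -18 in ZNF85, -23 in ZNF430, -24 in ZNF431 and -17 in ZNF100, and a CCAAT lay 51 to 58 bases before it. ZNF85, ZNF430 and ZNF431 had a second CCAAT at -81, -86 and -87. GGGCGG differed, with 2 matches in ZNF430, 1 each in ZNF85 and ZNF100 and 0 in ZNF431. Whether these letters bear on the RNA levels was not tested. Of the members of sub-cluster 4 with a promoter entry, 5 of 7 in the stretch and 16 of 22 outside it held CCGGAAG, and all 29 held CCAAT.

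The ETS-type motif stood in 99 of the 217 members with a promoter entry (45.6%), against 10.3% of all 35116 promoters of the table. It was spread unevenly, with 21 of 29 promoters in sub-cluster 4 but 2 of 25 in sub-cluster 3 and none of the 5 in sub-cluster 1. CCAAT stood in 53.9% of members against 34.6%, GGGCGG in 68.2% against 45.0%, the TATA letters TATAAA in 1.84% against 11.5%, CACGTG (an E box) in 4.15% against 7.26% and TGACTCA (an AP-1 site) in 2.30% against 4.95%. Members had a median of 20 CpG per window against 14 in all promoters. Each member entered with 1 promoter. The 35116 were not limited to 1 per gene or to protein-coding genes and were not matched for CpG, so the shares are not strictly alike. Tested members with CCGGAAG gave 4 lower and 1 higher of 95 in each of the comparisons with WT. Those without it gave 5 lower and 0 higher of 113 with the inhibitor and 10 lower and 1 higher with Tyr19Phe CDK9. The shares lower with the inhibitor were 4.21% with the motif and 4.42% without it, against 2.73% of all tested genes. With Tyr19Phe CDK9 they were 4.21% and 8.85%, both under the 10.4% of all tested genes. These matches are descriptions of letters, and binding was not measured.

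ZNF699 fell in both comparisons and more with Tyr19Phe CDK9. It encodes a KRAB protein in sub-cluster 2 (chr19:9294275-9309838) and shared no 75-base run with another gene. Its libraries had 65.8, 68.0 and 79.9 CPM in WT, 56.1, 48.9 and 53.8 in Ai and 35.5, 35.5 and 37.3 in Y19F. The 3 groups stood apart without overlap. The log2 fold change was -0.43 ± 0.08 with the inhibitor (adjusted p = 0.000612) and -0.98 ± 0.08 with Tyr19Phe CDK9 (adjusted p = 6.83e-11), and the direct comparison of Y19F with Ai gave -0.55 ± 0.08 (adjusted p = 4.16e-06). Its promoter is shown for contrast, with 3 GC boxes and neither CCAAT nor CCGGAAG.
ZNF699, chr19:9309789-9310088, minus strand: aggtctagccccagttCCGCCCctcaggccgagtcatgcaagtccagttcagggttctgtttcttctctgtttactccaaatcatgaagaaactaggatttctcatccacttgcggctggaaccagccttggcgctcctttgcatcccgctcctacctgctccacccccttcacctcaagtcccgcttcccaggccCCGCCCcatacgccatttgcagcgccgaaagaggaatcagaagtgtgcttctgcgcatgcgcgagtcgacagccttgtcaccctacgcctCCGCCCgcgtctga

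The other members lower with the inhibitor were ZNF442 and ZNF607. ZNF442, a KRAB gene of sub-cluster 3, was low in every group, with 6.41, 8.43 and 7.85 CPM in WT, 2.94, 3.57 and 4.03 in Ai and 6.26, 6.61 and 5.05 in Y19F. Its Ai libraries lay below all others. It had the largest change of the members called with the inhibitor, -1.11 ± 0.22 (adjusted p = 0.000967), was not called in Y19F against WT (-0.34 ± 0.20, adjusted p = 0.287) and was higher in Y19F than in Ai (0.77 ± 0.21, adjusted p = 0.00899). ZNF607 had 42.4 to 42.8 CPM in WT, 28.3 to 38.3 in Ai and 31.4 to 34.9 in Y19F. It fell by 0.37 ± 0.10 with the inhibitor (adjusted p = 0.0187) and by 0.37 ± 0.09 with Tyr19Phe CDK9 (adjusted p = 0.00505). However, the other genes on its strand cover 97.4% of it and it shares 19.1% of its 75-base runs.

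ZNF599, a KRAB gene of sub-cluster 5, was the sole member higher in both comparisons. The WT libraries had 4.56, 4.17 and 6.19 CPM, the Ai libraries 9.62, 7.41 and 7.64 and the Y19F libraries 7.88, 7.86 and 8.44. All 6 libraries of Ai and Y19F lay above WT. The log2 fold changes were 0.73 ± 0.19 (adjusted p = 0.0213) and 0.70 ± 0.19 (adjusted p = 0.00867). Without replicate 1 or 2 of WT, or replicate 1 of Ai, it was no longer called with the inhibitor. ZNF227 of sub-cluster 8 rose with Tyr19Phe CDK9, from 9.12 to 11.2 CPM in WT to 12.8 to 15.5 in Y19F (log2 fold change 0.44 ± 0.14, adjusted p = 0.0307).

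**Figure D3:**
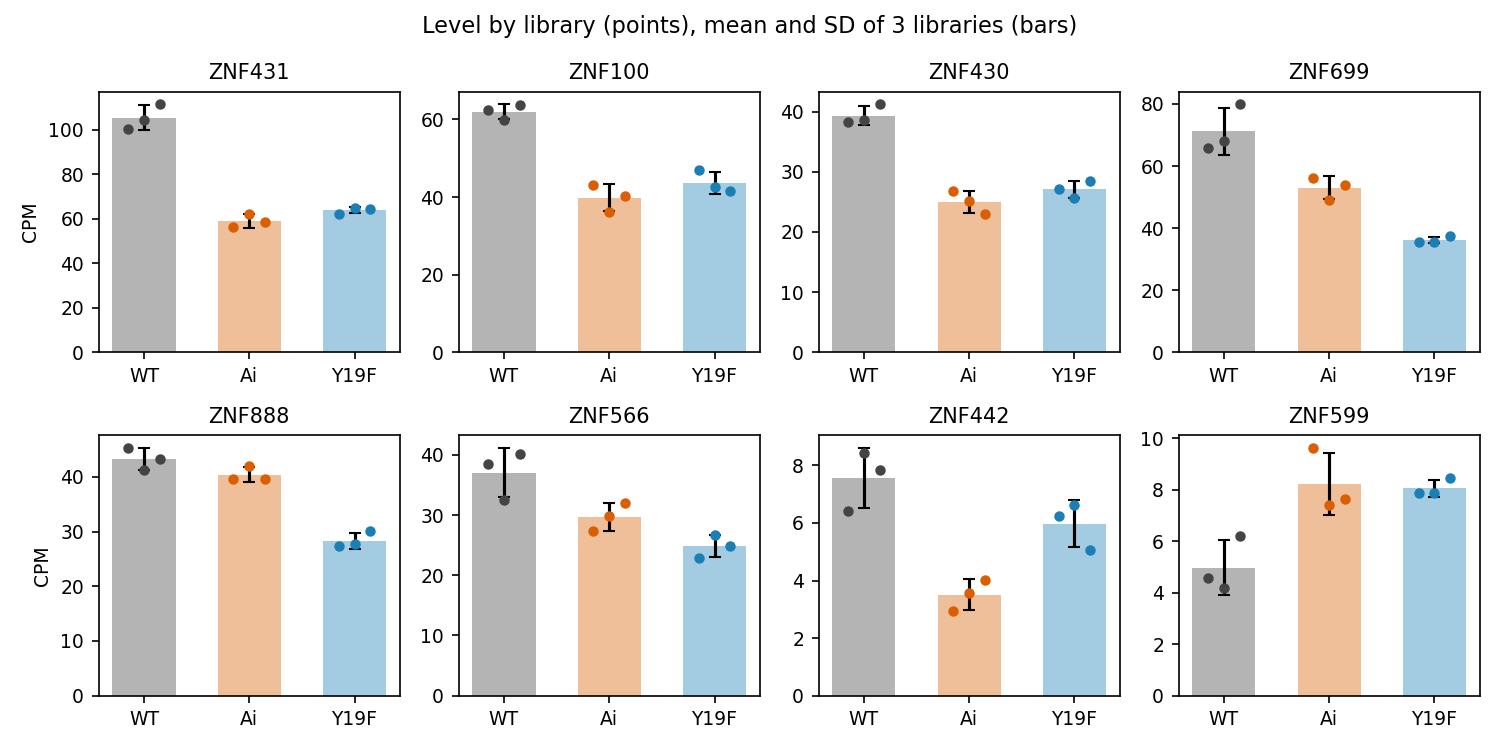
CPM (y axis) of 8 zinc finger genes in the WT, Ai and Y19F groups, with points for the 3 libraries and bars for their mean ± SD. ZNF431, ZNF100 and ZNF430 were lower in both Ai and Y19F than in WT, ZNF699 was lowest in Y19F, ZNF888 and ZNF566 were called lower only with Tyr19Phe CDK9, ZNF442 only with the inhibitor, and ZNF599 was higher in both.

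Members called lower with Tyr19Phe CDK9 but not with the inhibitor came from several sub-clusters. ZNF888 of sub-cluster 9 had 45.3, 41.3 and 43.2 CPM in WT, 39.6, 42.0 and 39.6 in Ai and 27.4, 27.7 and 30.0 in Y19F, with Y19F apart from both other groups. Its log2 fold change was -0.61 ± 0.09 against WT (adjusted p = 2.15e-06) and -0.51 ± 0.09 against Ai (adjusted p = 3.11e-05), although the other genes on its strand cover 100% of it. ZNF566 of sub-cluster 6, a short KRAB protein with 7 fingers, had 38.5, 32.4 and 40.2 CPM in WT, 27.3, 29.9 and 32.0 in Ai and 22.9, 26.7 and 24.9 in Y19F. Its groups did not overlap and followed the order WT, Ai, Y19F, with -0.58 ± 0.10 in Y19F (adjusted p = 6.43e-05), and -0.32 ± 0.10 in Ai, which was not called (adjusted p = 0.0691). In the direct comparison of Y19F with Ai, ZNF566 had -0.26 ± 0.10 (adjusted p = 0.069).

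ZNF569, a KRAB protein reported to repress MAPK signalling, had 41.0, 44.8 and 46.4 CPM in WT, 45.9, 38.6 and 40.9 in Ai and 33.6, 29.6 and 37.5 in Y19F. It fell by 0.39 ± 0.09 against WT (adjusted p = 0.00244) and by 0.32 ± 0.09 against Ai (adjusted p = 0.0131). Neighbours ZNF582 and ZNF583 of sub-cluster 10 fell by 0.39 ± 0.13 (adjusted p = 0.0317) and 0.59 ± 0.15 (adjusted p = 0.00449). ZNF582, whose promoter methylation is used as a marker in cervical cancer, overlapped WT in its highest Y19F library (16.9 against 16.7 CPM in the lowest WT library). ZNF480, ZNF468, ZNF562, ZNF772 and ZNF473 changed by -0.34 to -0.19 on the log2 scale, with adjusted p between 0.00843 and 0.0449. ZNF473 (ZFP100) is a component of the U7 particle that processes histone transcripts. ZNF772 and ZNF468 are covered over 99.7% and 92.0% by other genes on their strand, and ZNF480 over 90.4% by antisense genes.

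Compared directly, Y19F and Ai differed in 19 members. In Y19F 7 were lower and 12 higher than in Ai, which is 2.94% and 5.04% against 11.1% and 9.57% of all tested genes. Lower were ZNF699, ZNF888, ZNF569, ZNF772, ZNF582, ZNF468 and ZNF471, with log2 fold changes of -0.55 to -0.21; without replicate 3 of Ai 3 were lower, and without replicate 2 of Y19F 4. Higher were ZNF628, ZNF358, ZNF302, ZNF726, ZNF568, ZNF787, ZNF442, ZNF324, ZNF544, ZNF428, ZNF844 and ZNF418. Of these 12, ZNF442 was the one also called against WT. With an offset for GC content and length the comparison gave 5 lower and 19 higher, and without replicate 2 of Ai and replicate 3 of Y19F 7 and 8. Among the 12, ZNF358 had 69.2 to 80.5 CPM in WT, 57.4 to 67.7 in Ai and 76.9 to 81.2 in Y19F, a difference of 0.33 ± 0.07 between Y19F and Ai (adjusted p = 0.00112). However, the other genes on its strand cover 75.5% of it and it shares 18.3% of its 75-base runs. ZNF628 had 14.5 to 19.9 CPM in Ai and 23.3 to 27.6 in Y19F (0.57 ± 0.12, adjusted p = 0.000958). ZNF568, whose mouse counterpart silences a placental transcript of Igf2, had 22.2 to 25.5 CPM in Ai and 27.2 to 33.1 in Y19F (0.37 ± 0.10, adjusted p = 0.00828) and shares 32.4% of its 75-base runs. The stretch from ZNF430 to ZNF100 gave 0 calls of 8 in this comparison by edgeR and by DESeq2 (3 higher at an unadjusted p under 0.05), though the 8 log2 differences were all above 0 (median 0.13, range 0.01 to 0.33). Of the 9 tested non-members inside the stretch, 3 were higher in Y19F than in Ai, LINC00664 (0.56 ± 0.12, adjusted p = 0.000486), AC010615.2 (0.35 ± 0.09, adjusted p = 0.00518) and VN1R81P (1.19 ± 0.39, adjusted p = 0.0274). The counts of VN1R81P may include reads of ZNF714, inside which it lies.

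The other sub-clusters moved little as wholes. With the inhibitor their medians ran from -0.13 (sub-cluster 5) to 0.17 (sub-cluster 7, with 3 genes), and with Tyr19Phe CDK9 from -0.12 (sub-cluster 2) to 0.17 (sub-cluster 7). Sub-cluster 4 had medians of -0.11 and 0.08, the latter above 0 although 5 of its 33 tested genes were lower. Without replicate 1 of Ai, its median with the inhibitor was -0.06. Sub-cluster 8 had 0 calls of 24 with the inhibitor by edgeR, by DESeq2 and at an unadjusted p under 0.05, and 1 higher with Tyr19Phe CDK9, with medians of 0.07 and 0.12. The large sub-clusters 9 and 10 had 0 calls of 39 and of 58 with the inhibitor by both tools (2 and 4 at an unadjusted p under 0.05) and 3 lower each with Tyr19Phe CDK9.

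The partners through which KRAB zinc finger proteins act were followed with a list of 34 genes, all tested. With the inhibitor 0 were lower by edgeR and by DESeq2 (1 at an unadjusted p under 0.05) and 1 was higher, DNMT3B, a de novo DNA methyltransferase (0.32 ± 0.10, adjusted p = 0.0486). With Tyr19Phe CDK9 9 were lower and 1 was higher, 26.5% and 2.94% of the list, against 10.4% and 7.61% of all tested genes. Among tested protein-coding genes the shares were 12.4% and 8.95%. The 9 lower genes had mean levels of 63.6 (SMARCAD1) to 519 CPM (CBX5), against a median of 30.1 for tested protein-coding genes. Small changes are more easily called at such levels. The medians of the list were -0.03 and -0.02. TRIM28, the scaffold, was among the most abundant, with 593, 622 and 553 CPM in WT, 581, 558 and 536 in Ai and 603, 609 and 593 in Y19F. Its groups overlapped, and its log2 fold changes of -0.08 ± 0.04 (adjusted p = 0.379) and 0.03 ± 0.04 (adjusted p = 0.686) were not called.

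All 3 HP1 genes were lower with Tyr19Phe CDK9. CBX1, CBX3 and CBX5 encode HP1 beta, gamma and alpha, readers of methylated histone H3. CBX3 had 202, 199 and 194 CPM in WT, 185, 180 and 203 in Ai and 163, 160 and 159 in Y19F, so that Y19F lay below both other groups (log2 fold change -0.30 ± 0.05). CBX1 had -0.29 ± 0.05 and CBX5 -0.19 ± 0.04. CHD3, a remodeller of the NuRD complex, had the largest change, -0.43 ± 0.06. TASOR of the HUSH complex (listed under its older symbol FAM208A) had -0.27 ± 0.05, TRIM33, a relative of TRIM28, -0.25 ± 0.05, SMARCAD1 -0.23 ± 0.07, ATRX -0.22 ± 0.06 and the deacetylase HDAC2 -0.15 ± 0.05. Other listed genes of these complexes were not called against WT. For HUSH and its partner MORC2 they were MPHOSPH8 (0.0008), PPHLN1 (0.06) and MORC2 (0.17). For NuRD they were CHD4 (0.03), HDAC1 (0.03), MTA2 (-0.01), RBBP4 (0.02) and RBBP7 (-0.07). SETDB1, the histone methyltransferase that TRIM28 recruits, was the higher one, with 34.2 to 41.3 CPM in WT, 38.2 to 41.9 in Ai and a mean of 47.5 ± 5.20 in Y19F (SD, n = 3), a log2 fold change of 0.36 ± 0.09 (adjusted p = 0.00402). In the direct comparison of Y19F with Ai, 8 of the 34 were lower and 2 higher (23.5% and 5.88%, against 11.1% and 9.57% of all tested genes and 13.4% and 11.0% of protein-coding ones).

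**Figure D4:**
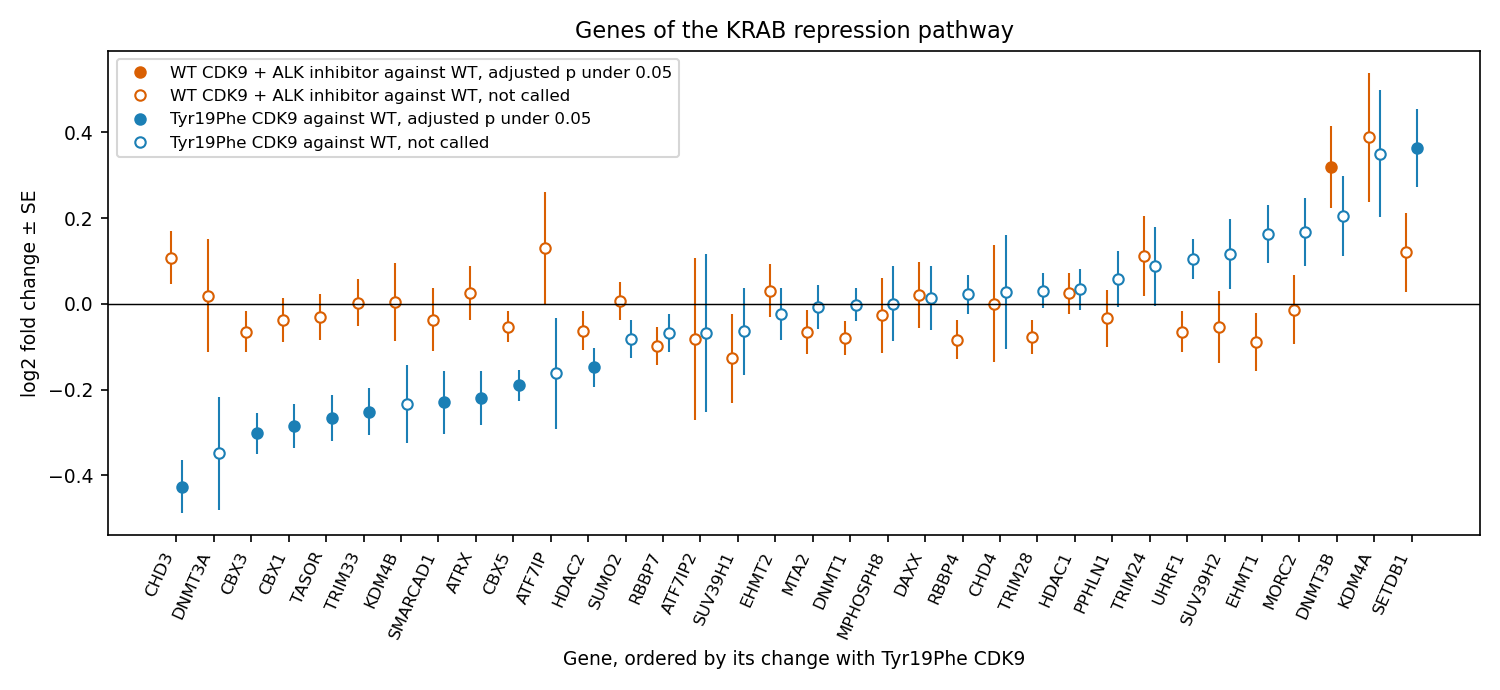
Log2 fold change ± SE (y axis) of the 34 genes of the KRAB repression pathway (x axis) against WT, with the ALK inhibitor in orange and Tyr19Phe CDK9 in blue; filled points have an adjusted p under 0.05. In blue 9 genes are filled below 0 and SETDB1 above it, and in orange DNMT3B alone is filled.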

How the data were processed

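RNA of SKOV3 cells was sequenced in 9 libraries, 3 per group. Per the labels, the authors mapped reads to hg38 with HISAT2 2.0.5 and counted them per gene with featureCounts 1.5.0-p3; the deposited table holds these whole-number counts, not normalized, for 9 columns, all used. The annotation and strand setting are not given in the sources used here. Groups came from the labels. Members and lists were chosen with earlier results of these data known, and a gene of the pathway list and a marker are not reported here.

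Genes passing edgeR's filterByExpr (minimum count 10, minimum total 15) were scaled by TMM and fitted with edgeR 4.0.16 (R 4.3.3) by its quasi-likelihood test, with 1 mean per group over all 9 libraries and 6 residual degrees of freedom. P-values were adjusted by Benjamini-Hochberg over all 16350 tested genes, and an adjusted p under 0.05 was a call. Log2 ratios of single libraries used a prior count of 2. The smallest two-sided exact permutation p for 3 against 3 libraries is 0.1, so single values were not tested alone. DESeq2 1.42.0, other scalings, filters, offsets, a replicate block and the removal of each library were alternatives. The fit was tested on simulated data.

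Named members were, by comparison and direction, the 10 called with the smallest adjusted p and the 5 with the largest change at 1 CPM or more, those called in both comparisons with WT and the 5 highest per length; other names were chosen after their values were seen. KRAB letters, fingers, overlaps and shared 75-base runs came from GENCODE release 44, and 217 of 249 members had a RefSeq promoter.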

Additional observations from a re-analysis of the deposited data

How the results depend on the processing

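The counts of lower members against WT held within 1.5 times under the other scalings, filters, offsets, fits and DESeq2, and without the libraries with fewer detected genes, at 8 to 11 with the inhibitor and 14 to 18 with Tyr19Phe CDK9. A required log2 fold change of at least 0.5 left 5 lower with the inhibitor, 7 lower and 1 higher with Tyr19Phe CDK9, and 2 lower and 3 higher between Y19F and Ai. An adjusted p under 0.01 left 0 higher with the inhibitor, 11 lower and 1 higher with Tyr19Phe CDK9, and 2 lower and 7 higher between Y19F and Ai. Higher members with Tyr19Phe CDK9 (2) became 4 with scaling by library size alone, 4 among protein-coding genes only and 1 with no filter beyond 1 count. An offset for GC content and length gave 19 higher between Y19F and Ai, with member medians of 0.023 for Y19F against WT and 0.018 for Y19F against Ai; the cause was not tested.

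Leaving out each library in turn gave 0 to 1 higher members and 7 to 10 lower with the inhibitor, 11 to 17 lower and 1 to 4 higher with Tyr19Phe CDK9, and 3 to 7 lower and 8 to 12 higher between Y19F and Ai. In the stretch it gave 4 to 7 of 8 lower with the inhibitor and 4 to 5 with Tyr19Phe CDK9; these stretch counts were added after the data were seen. Of the members called, 6 of 11 with the inhibitor, 8 of 19 with Tyr19Phe CDK9 and 5 of 19 between Y19F and Ai were called under all 20 alternatives. ZNF431, ZNF100, ZNF430 and ZNF699 were among those in both comparisons with WT, while ZNF738 lost its inhibitor call under 8, ZNF607 under 5, ZNF708 under 4 and ZNF599 under 3. With Tyr19Phe CDK9, ZNF562 lost its call under 12, ZNF473 under 10, ZNF468 under 9 and ZNF714 of the stretch under 6. A gap of 0.5 Mb gave 11 sub-clusters and one of 2 Mb gave 6 in place of 10. Of 297 sub-cluster medians with a library left out, 14 moved by more than the spread between replicates. The 11 members with the fewest counts could not be tested.

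Same-numbered libraries did not deviate together (correlations of -0.012 to 0.026), so the numbers were not used as pairs. With the replicate block the counts were 10 lower and 1 higher with the inhibitor, 18 and 2 with Tyr19Phe CDK9 and 7 and 14 between Y19F and Ai. The replicate block with the GC and length offset gave 4 higher with Tyr19Phe CDK9, 19 higher between Y19F and Ai and a member median of 0.017 for the latter.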

Other observations

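Zinc finger genes of chromosome 19 with other symbols (ZFP, ZBTB, ZSCAN and the like) were counted apart. Of the 12 tested, 2 were lower than WT with the inhibitor, and 3 were lower and 1 higher with Tyr19Phe CDK9. Of all tested genes 2.73% were lower with the inhibitor, and 10.4% were lower and 7.61% higher with Tyr19Phe CDK9. ZFP30, a KRAB zinc finger gene in sub-cluster 6, had 114, 109.5 and 127 CPM in WT, 96.0, 88.7 and 92.2 in Ai and 53.4, 58.7 and 56.5 in Y19F. The 3 groups did not overlap. Its log2 fold change was -0.34 ± 0.06 (SE) with the inhibitor (adjusted p = 0.000595) and -1.06 ± 0.06 with Tyr19Phe CDK9 (adjusted p = 6.7e-14), and Y19F differed from Ai by -0.72 ± 0.07 (adjusted p = 4.65e-10). This change with Tyr19Phe CDK9 was larger than that of every member called in the comparison. However, the member ZNF781 lies inside ZFP30 on the same strand. How this overlap affects the counts of ZFP30 was not tested.

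ZFP82, also in sub-cluster 6, had 58.5, 56.9 and 54.4 CPM in WT, 46.7, 45.4 and 42.8 in Ai and 38.6, 38.9 and 40.1 in Y19F, again without overlap. It fell by 0.33 ± 0.08 with the inhibitor (adjusted p = 0.00609) and by 0.53 ± 0.08 with Tyr19Phe CDK9 (adjusted p = 3.19e-06). ZFP28 of sub-cluster 10, an ancient KRAB gene, fell by 0.38 ± 0.09 with Tyr19Phe CDK9 (adjusted p = 0.00209) and had -0.29 ± 0.09 with the inhibitor (adjusted p = 0.0623). ZBTB7A, a BTB-domain factor of blood and other lineages, rose with Tyr19Phe CDK9 by 0.29 ± 0.07 (adjusted p = 0.00326).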
